A study of Mus musculus with 12 samples.

Results

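The 8 genes described here encode the ventricular myosin chains and the proteins that bind or phosphorylate them: the heavy chains Myh6 and Myh7, the light chains Myl2 and Myl3, the myosin-binding C-proteins Mybpc3 and Mybpc2, and the light chain kinases Mylk3 and Mylk4. They were found by symbol as every probe set annotated to a single one of these genes, which gave 11 of the 45101 probe sets on the array, 3 for Myl3, 2 for Myh6 and 1 for each of the others. They are 8 of the 18193 genes with a probe set of their own. A further 2 probe sets are annotated to Myh7 and Myh6 together and were kept apart, because their signal cannot be split between those genes.

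Total RNA from 12 mouse hearts was hybridised to Affymetrix arrays, 1 heart sample to each array. The 4 groups of 3 arrays were Apelin-knockout hearts after aortic banding (KO banded), Apelin-knockout hearts after sham surgery (KO sham), wild-type hearts after aortic banding (WT banded) and wild-type hearts after sham surgery (WT sham). Apelin, encoded by Apln, is a secreted peptide that acts on a receptor in heart and vessels, and aortic banding narrows the aorta so that the left ventricle works against a raised pressure. The labels call the arrays of a group biological replicates, and p-values measure the spread between those samples. They give no strain, age, sex, time after surgery or part of the heart, and do not say how the knockout allele was made.

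Myosin heavy chains form the thick filament of the sarcomere and split ATP to pull on actin, and each carries an essential and a regulatory light chain. Adult mouse ventricle uses mainly the fast alpha chain of Myh6. The slow beta chain of Myh7 is the fetal ventricular form and is a widely used marker of pressure overload in rodents. C-proteins lie along the thick filament and restrain the myosin heads, and phosphorylation of the regulatory light chain by its kinases raises the force of contraction.

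The RefSeq promoter windows are shown for the heavy chain pair, which lies on 1 chromosome, and for the other members that passed the test described below. Each is the 250 bases before an annotated start in GRCm38.p6, 5′ to 3′ on the minus strand on which the gene lies, and capitals mark the MCAT element, searched as CATTCC on both strands, which TEAD factors bind.
Myh7, chr14:54994627-54994876: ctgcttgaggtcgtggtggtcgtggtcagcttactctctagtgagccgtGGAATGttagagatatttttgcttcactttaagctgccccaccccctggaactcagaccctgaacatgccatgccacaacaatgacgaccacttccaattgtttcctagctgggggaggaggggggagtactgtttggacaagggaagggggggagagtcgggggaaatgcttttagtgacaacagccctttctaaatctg
Myh6, chr14:54966608-54966857: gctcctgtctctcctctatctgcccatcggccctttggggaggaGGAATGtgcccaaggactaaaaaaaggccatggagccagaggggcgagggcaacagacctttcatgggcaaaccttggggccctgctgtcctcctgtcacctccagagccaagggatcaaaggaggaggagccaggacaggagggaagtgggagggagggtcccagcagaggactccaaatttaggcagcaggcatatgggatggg
Mybpc2, chr7:44524670-44524919: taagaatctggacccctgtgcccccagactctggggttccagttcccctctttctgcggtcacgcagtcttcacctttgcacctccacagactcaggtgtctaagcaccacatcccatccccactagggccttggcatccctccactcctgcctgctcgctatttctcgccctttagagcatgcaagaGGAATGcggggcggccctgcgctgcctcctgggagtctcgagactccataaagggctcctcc
Mylk4, chr13:32783965-32784214: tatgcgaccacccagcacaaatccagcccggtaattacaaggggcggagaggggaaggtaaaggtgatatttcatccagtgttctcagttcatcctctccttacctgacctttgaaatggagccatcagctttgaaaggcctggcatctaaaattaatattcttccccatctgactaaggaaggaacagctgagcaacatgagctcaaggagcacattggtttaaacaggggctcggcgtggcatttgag
The element lay 201 to 196 bases before the Myh7 start, 206 to 201 bases before the Myh6 start and 62 to 57 bases before the Mybpc2 start. The Mylk4 window held none, nor did the window of a second Myh7 start annotated further in, which overlaps the one shown. All 8 members had a window, 11 in all, and 5 windows of 5 members held the element, the other members being Myl3 and Mylk3. Of all 32851 windows of the table, 12.6% held it, so a match describes these letters and does not show that a factor binds there. On both strands GATA was present in 53.6% of all windows, TATAAA in 12.4%, the thyroid half-site AGGTCA in 14.0%, the CArG box in 1.47% and the MEF2 site in 0.508%. Among the members, the thyroid half-site occurred in a Myl2 and the Mylk4 window, the CArG box in Myl3 and the MEF2 site in Mybpc3.

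The samples were checked by the targeted gene and by markers. Apln intensity was 271, 123 and 160 in KO banded, 63.7, 111 and 85.4 in KO sham, 205, 223 and 255 in WT banded, and 333, 323 and 212 in WT sham arrays. The array labelled KO banded replicate 1 was therefore within the wild-type range, while the other 5 knockout arrays were below all 6 wild-type arrays, and where the probe set lies relative to the deleted sequence is not known here. Airway and lung markers, a list of 6 genes, summed to 1675 on that same array. They summed to at most 227 on the other KO banded arrays, 240 in KO sham, 203 in WT banded and 248 in WT sham arrays. Most of the 1675 came from Scgb1a1 at 1094 and Scgb3a2 at 410. The surfactant genes Sftpb, Sftpc, Sftpa1 and Sftpd were at or under 89.8 on every array. Adipocyte markers summed to 502 on WT banded replicate 1 and to 580, the highest of the 12, on KO banded replicate 1. The members' banding tests in knockout hearts are therefore given with and without that array. The cardiomyocyte list was bright on every array, with none of its 10 genes under 16 on any array, and its sum ran from 77417 to 79815 in KO banded, from 95254 to 104670 in KO sham, from 90901 to 112075 in WT banded and from 79188 to 152123 in WT sham arrays. These hearts were measured whole or in unnamed parts, and fewer cells of a type and less RNA per cell cannot be told apart.

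**Figure D1:**
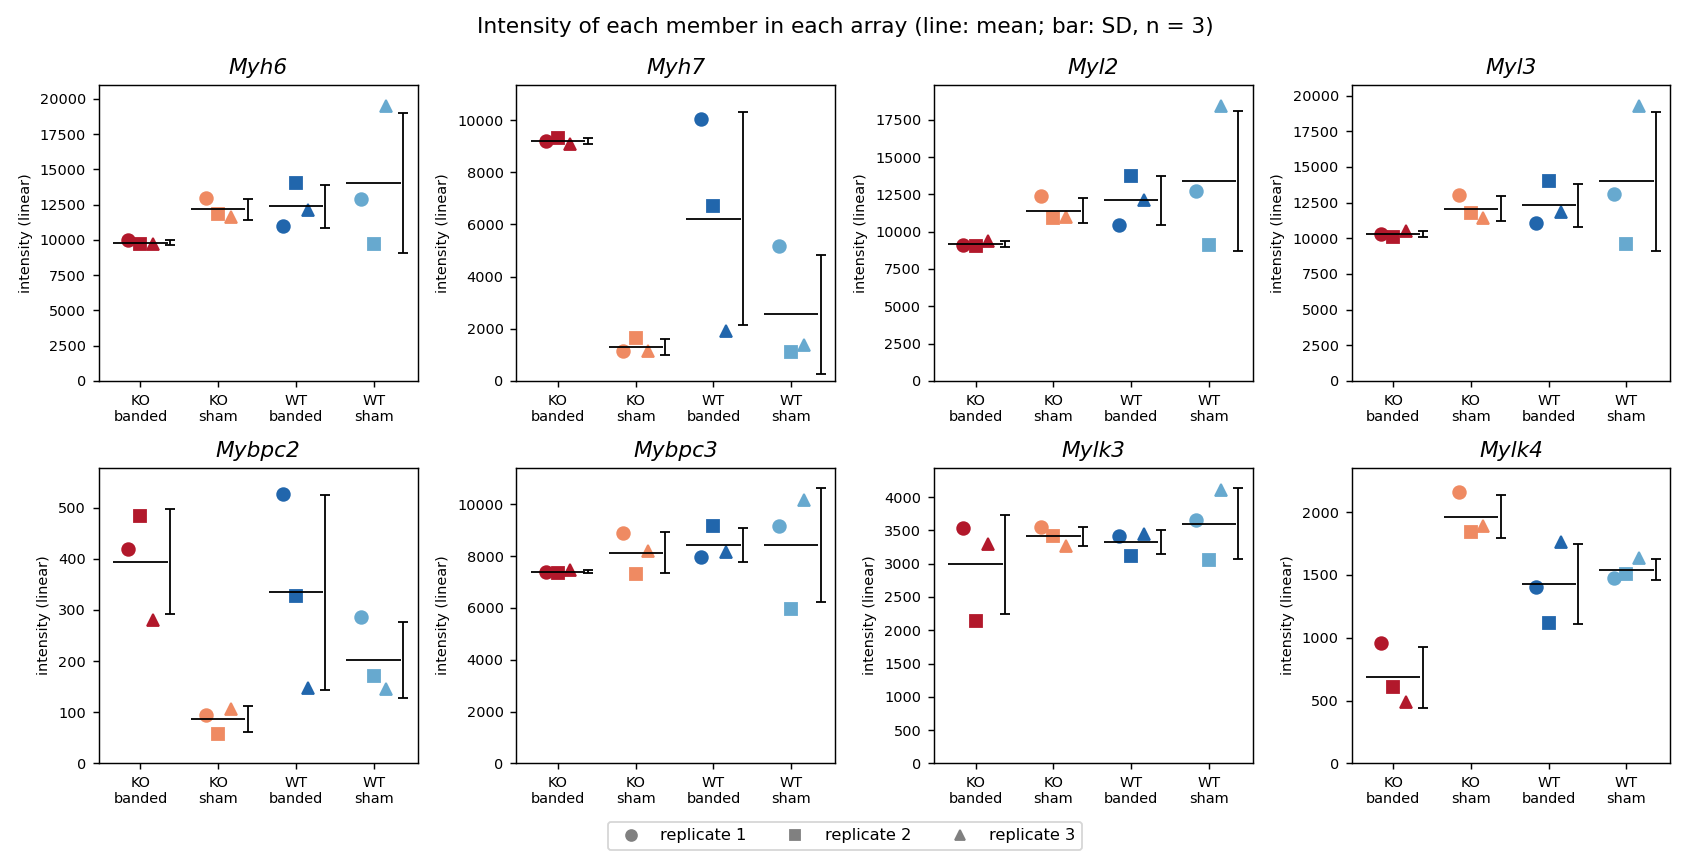
Linear intensity of the representative probe set of each of the 8 genes in each of the 12 arrays, with the mean as a line and the SD of 3 arrays as a bar. Myh7 and Mybpc2 are higher, and Mylk4 is lower, in all 3 KO banded arrays than in all 3 KO sham arrays.

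Banding in knockout hearts went with more Myh7 and Mybpc2 signal and with less Mylk4 signal, and these 3 of the 8 members passed the test at an adjusted p under 0.05. Myh7 was 7.05-fold higher in KO banded than in KO sham hearts and Mybpc2 4.54-fold higher, while Mylk4 was 2.87-fold higher in KO sham than in KO banded hearts. The other 5 members, Myh6, Myl2, Myl3, Mybpc3 and Mylk3, did not pass. Differences are fitted on log2(intensity + 16) by limma over 10916 tested genes with Benjamini-Hochberg adjustment, and all 8 members were among the genes tested. Of all genes tested, 412 or 3.77% passed in this comparison, 2.04% as higher and 1.73% as lower.

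Myh7, the beta heavy chain, had intensities of 9203, 9324 and 9091 in KO banded hearts, against 1132, 1656 and 1128 in KO sham hearts. The KO banded arrays lay within a narrow band, as they also did for the brightest probe sets of Myh6, Myl2, Myl3 and Mybpc3. In Myh7 none came near a KO sham array. In WT banded hearts Myh7 was at 10045, 6718 and 1918, against 5182, 1109 and 1361 in WT sham hearts. The wild-type groups overlapped: WT banded replicate 3 was below WT sham replicate 1, and the 3 values of each group spread widely.

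Myh7 averaged 9206 ± 117 in KO banded and 1305 ± 303 in KO sham hearts (SD, n = 3 each), a log2 difference of 2.83 (SE 0.58, 95% interval 1.57 to 4.08, limma adjusted p = 0.0244). It averaged 6227 ± 4085 in WT banded and 2551 ± 2282 in WT sham hearts (SD, n = 3 each), a log2 difference of 1.34 (SE 0.58, interval 0.09 to 2.59, limma adjusted p = 0.921). The order of the group means was KO banded, WT banded, WT sham, KO sham, and of the neighbours in that order none was separated from the next in all arrays. The difference between the banding effects, the interaction, was 1.49 (SE 0.82, limma adjusted p = 0.596) and did not pass, so the larger value in knockout hearts is not shown to differ from that in wild-type hearts.

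KO banded against WT banded hearts, Myh7 differed by 0.86 on the log2 scale (SE 0.58, interval −0.39 to 2.11), and KO sham against WT sham by −0.62 (SE 0.58, interval −1.88 to 0.63), with limma adjusted p of 0.518 and 0.975. Averaged over genotypes, Myh7 was higher in banded than in sham hearts by 2.08 (SE 0.41, limma adjusted p = 0.0341). In that averaged comparison the same 3 members passed, Mybpc2 at 1.29 (SE 0.27, adjusted p = 0.0379) and Mylk4 at −0.84 (SE 0.15, adjusted p = 0.0268), while 1.58% of all genes tested passed, 0.934% as higher and 0.641% as lower.

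Myh6, the alpha heavy chain, had intensities of 10001, 9698 and 9688 in KO banded hearts, against 12978, 11848 and 11644 in KO sham hearts. It was at 10998, 14018 and 12136 in WT banded hearts, against 12914, 9719 and 19471 in WT sham hearts. Its KO banded arrays were below all KO sham and WT banded arrays, but WT sham replicate 2 was as low and WT sham replicate 3 was the brightest of the 12. The log2 difference was −0.31 in knockout (SE 0.20, limma adjusted p = 0.394) and −0.13 in wild-type hearts (SE 0.20, adjusted p = 0.988), and neither passed.

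The dimmer Myh6 probe set gave 3828, 2664 and 2635 in KO banded hearts, against 3844, 4897 and 4362 in KO sham hearts. Its difference of −0.53 (SE 0.24, limma adjusted p = 0.256 over all single-gene probe sets, of which 2.39% passed) was larger than that of the brighter one and did not pass either. The 2 probe sets shared by Myh7 and Myh6 differed by −0.29 and −0.30 between KO banded and KO sham hearts (SE 0.18 and 0.22, adjusted p 0.446 and 0.540), close to the Myh6 value and unlike the Myh7 value.

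**Figure D2:**
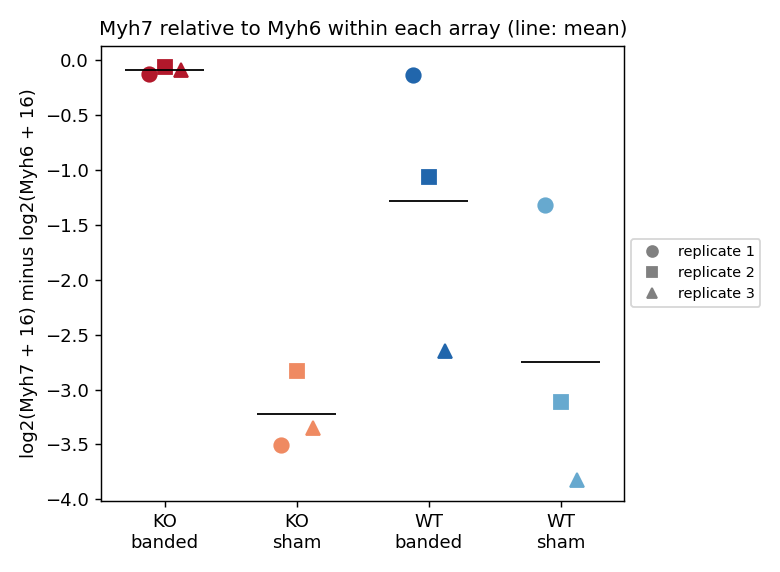
Myh7 relative to Myh6 within each array, as log2(Myh7 + 16) minus log2(Myh6 + 16), with the group mean as a line. All 3 KO banded arrays lie between −0.12 and −0.06 and all 3 KO sham arrays between −3.50 and −2.83, while the WT banded and WT sham arrays overlap.

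Because both heavy chains are read on the same array, their log ratio removes any factor that scales a whole array, although its zero does not mean equal amounts of mRNA. The log2 ratio of Myh7 to Myh6 was −0.12, −0.06 and −0.09 in KO banded arrays, against −3.50, −2.83 and −3.35 in KO sham arrays. It was −0.13, −1.06 and −2.65 in WT banded arrays, against −1.31, −3.11 and −3.82 in WT sham arrays. The knockout groups were far apart, and WT banded replicate 3 lay among the sham arrays.

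Between KO banded and KO sham hearts the ratio differed by 3.14 (two-sided exact permutation p = 0.1, the smallest that 3 against 3 arrays allow), and between WT banded and WT sham hearts by 1.47 (exact p = 0.2). Over 6 banded against 6 sham arrays it differed by 2.30, with an exact permutation p of 0.00433 and 0.0260 after adjustment over the 6 comparisons of the ratio. That test permuted the labels over all 12 arrays together, not within each genotype. KO banded minus WT banded gave 1.19 (exact p = 0.1), KO sham minus WT sham −0.48 (exact p = 0.8) and all knockout minus all wild-type arrays 0.36 (exact p = 0.667). Over the 12 arrays the banding difference of the ratio passed, and that of all knockout minus all wild-type arrays did not. The comparisons of 3 against 3 arrays, for banding or genotype, could not pass at 0.05. KO banded minus WT banded was at their smallest p, with each KO banded ratio above each WT banded ratio, by a small margin (−0.12 against −0.13). The averaged banding call was lost without most single arrays, though the difference kept its direction. Leaving out each array in turn gave differences from 2.14 to 2.70. The exact permutation p adjusted over the 6 comparisons then ran from 0.0260 to 0.0649. It was under 0.05 in 2 of the 12 cases, without WT banded replicate 3 or without WT sham replicate 1. Without KO banded replicate 1 the averaged difference was 2.19 (exact p = 0.0108, adjusted 0.0649), and KO banded minus KO sham was 3.15 (exact p = 0.1, again the smallest possible). Without that array KO banded minus WT banded was 1.21 (exact p = 0.2) and all knockout minus all wild-type arrays 0.05 (exact p = 0.965).

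Myl2, the ventricular regulatory light chain, had intensities of 9078, 9059 and 9380 in KO banded hearts, against 12368, 10889 and 10954 in KO sham hearts. Myl2 was at 10474, 13702 and 12102 in WT banded hearts, against 12748, 9092 and 18408 in WT sham hearts. As for Myh6, the KO banded arrays were below the KO sham and WT banded arrays, while WT sham replicate 2 was close to the KO banded values and WT sham replicate 3 was the brightest of the 12. Its log2 difference was −0.31 in knockout (SE 0.20, limma adjusted p = 0.402) and −0.10 in wild-type hearts (SE 0.20, adjusted p = 0.993).

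Myl3, the ventricular essential light chain, had intensities on its brightest probe set of 10286, 10093 and 10500 in KO banded hearts, against 13067, 11782 and 11396 in KO sham hearts. The same probe set gave 11064, 14013 and 11825 in WT banded hearts, against 13092, 9607 and 19255 in WT sham hearts. The 3 probe sets of Myl3 differed between KO banded and KO sham hearts by −0.23, −0.29 and −0.30, with limma adjusted p from 0.437 to 0.576 over all single-gene probe sets, and none passed. All 3 ranked the arrays of the knockout groups the same way round, KO banded below KO sham.

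Mybpc3, the cardiac C-protein, had intensities of 7399, 7346 and 7464 in KO banded hearts, against 8888, 7313 and 8196 in KO sham hearts. Mybpc3 was at 7953, 9173 and 8158 in WT banded hearts, against 9157, 5943 and 10179 in WT sham hearts. The groups overlapped within each genotype, and the log2 differences were −0.13 in knockout (SE 0.17, limma adjusted p = 0.706) and 0.03 in wild-type hearts (SE 0.17, adjusted p = 0.995).

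Mybpc2, the C-protein of fast skeletal muscle, had intensities of 419, 483 and 281 in KO banded hearts, against 95.3, 58.4 and 107 in KO sham hearts. In WT banded hearts it was at 528, 328 and 148, against 286, 172 and 146 in WT sham hearts. The knockout groups did not overlap, the wild-type groups did, and all 3 WT sham arrays were above all 3 KO sham arrays.

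Mybpc2 averaged 394 ± 103 in KO banded and 86.8 ± 25.3 in KO sham hearts (SD, n = 3 each), a log2 difference of 1.996 (SE 0.38, interval 1.18 to 2.82, limma adjusted p = 0.0209). It averaged 334 ± 190 in WT banded and 201 ± 74.3 in WT sham hearts (SD, n = 3 each), a difference of 0.58 (SE 0.38, interval −0.24 to 1.40, adjusted p = 0.945). KO sham minus WT sham was −1.06 (SE 0.38, interval −1.88 to −0.24, limma adjusted p = 0.931), and the interaction was 1.42 (SE 0.53, adjusted p = 0.500). Neither passed over all genes. KO banded minus WT banded was 0.36 (SE 0.38, adjusted p = 0.703).

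Markers of fast skeletal muscle were set beside Mybpc2. Of a list of 12, Myh1 was under an intensity of 16 on all 12 arrays, Tnnc2 and Actn3 on 11, and Myh2 and Myh4 on 10. The list summed to 426, 447 and 842 in KO banded, against 470, 535 and 660 in KO sham arrays. The knockout groups, between which Mybpc2 differed, thus overlapped in it. In WT banded arrays it summed to 2262, 799 and 364, against 1412, 741 and 547 in WT sham arrays. Within each wild-type group the sum and Mybpc2 ranked the replicates alike, and WT banded replicate 1 was the highest of the 12 in both. Among KO banded arrays replicate 3 had the highest sum and the lowest Mybpc2. The part of skeletal muscle in the Mybpc2 values was not tested. Other genes of the list did have signal: Myl1, a light chain of fast muscle, ran from 63.96 to 1801, Atp2a1 from 30.0 to 121 and Pvalb from 21.2 to 61.9, all above 16 on every array. Tnni2 ran from 8.62 to 190 and Mybpc1 from 5.44 to 46.1, each under 16 on 2 arrays, Mylpf from 15.9 to 43.1, under 16 on 1, and Tnnt3 was under 16 on 9.

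Mylk3, the cardiac light chain kinase that phosphorylates Myl2, had intensities of 3542, 2142 and 3289 in KO banded hearts, against 3552, 3409 and 3266 in KO sham hearts. In WT banded hearts it was at 3421, 3121 and 3444, against 3650, 3048 and 4107 in WT sham hearts. KO banded replicate 2 was the lowest of the 12 arrays and the rest lay close together. The log2 differences were −0.22 in knockout (SE 0.17, limma adjusted p = 0.487) and −0.10 in wild-type hearts (SE 0.17, adjusted p = 0.988).

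Mylk4, a member of the light chain kinase family found in striated muscle, had intensities of 957, 612 and 486 in KO banded hearts, against 2157, 1842 and 1891 in KO sham hearts. Mylk4 was at 1404, 1121 and 1761 in WT banded hearts, against 1479, 1507 and 1637 in WT sham hearts. All 3 KO banded arrays were below the other 9 arrays, and all 3 KO sham arrays were above them. The wild-type groups overlapped and lay between the knockout groups.

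Mylk4 averaged 685 ± 244 in KO banded and 1964 ± 170 in KO sham hearts (SD, n = 3 each), a log2 difference of −1.55 (SE 0.21, interval −2.004 to −1.10, limma adjusted p = 0.00879). It averaged 1428 ± 321 in WT banded and 1541 ± 84.5 in WT sham hearts (SD, n = 3 each), a difference of −0.13 (SE 0.21, interval −0.58 to 0.32, adjusted p = 0.988). The order of the group means was KO sham, WT sham, WT banded, KO banded, and of these neighbours only WT sham and WT banded overlapped. KO banded minus WT banded was −1.08 (SE 0.21, interval −1.53 to −0.62, limma adjusted p = 0.0946), KO sham minus WT sham 0.34 (SE 0.21, adjusted p = 0.940) and the interaction −1.42 (SE 0.30, adjusted p = 0.375). None of these 3 passed over all genes.

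**Figure D3:**
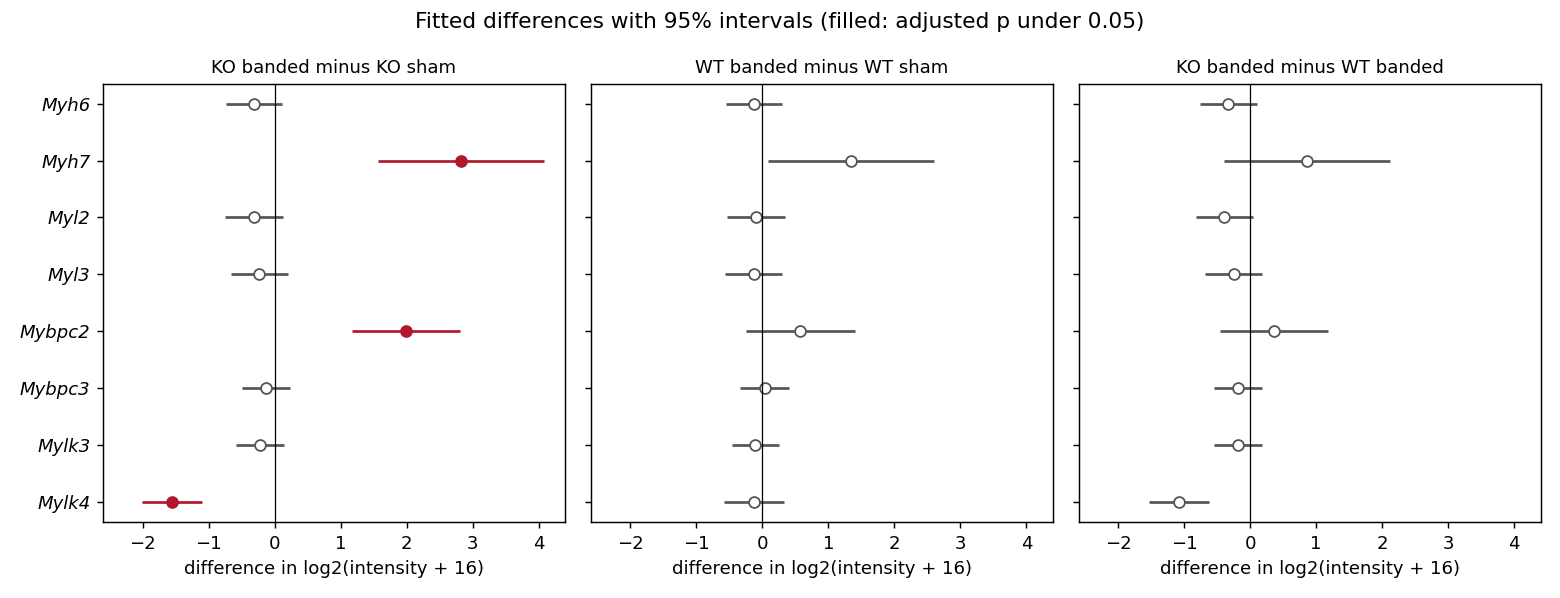
Fitted log2 differences of the 8 members with 95% intervals in KO banded minus KO sham, WT banded minus WT sham and KO banded minus WT banded hearts, filled where the adjusted p over all tested genes is under 0.05. The filled points are Myh7 at 2.83, Mybpc2 at 1.996 and Mylk4 at −1.55, all in knockout hearts.

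In wild-type hearts no member passed for banding, and no gene of the 10916 did in limma, 0% of those tested, although 537 genes and 1 member, Myh7, had an unadjusted p under 0.05. No member passed between KO banded and WT banded hearts, KO sham and WT sham hearts or in the interaction, where again 0% of all genes passed; 1605, 564 and 991 genes had an unadjusted p under 0.05, with 1, 1 and 2 members among them. Knockout against wild type averaged over surgery likewise gave 0% of genes, with 1162 genes and 1 member at an unadjusted p under 0.05. Myh7 in wild-type hearts had an interval that reached from 0.09 to 2.59, so these arrays do not show that banding left it unchanged.

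Without the array labelled KO banded replicate 1, the same 3 members passed between KO banded and KO sham hearts, Myh7 at 2.83 (limma adjusted p = 0.0165), Mybpc2 at 1.94 (adjusted p = 0.0128) and Mylk4 at −1.82 (adjusted p = 7.17e-05), and 13.1% of all genes then passed. Mylk4 also passed between KO banded and WT banded hearts, at −1.34 (adjusted p = 0.00158), and in the interaction, at −1.68 (adjusted p = 0.00559), where 6.17% and 1.9% of all genes passed. Apln on the omitted array was in the wild-type range, and Mylk4 on it was the highest of the 3 KO banded values. Myh7 did not pass in either comparison without it, with adjusted p of 0.500 and 0.457. The other 5 members missed in knockout hearts without it too, Myh6 at −0.32, Myl2 at −0.30, Myl3 at −0.23, Mybpc3 at −0.13 and Mylk3 at −0.36, with limma adjusted p from 0.198 to 0.725.

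The calls in knockout hearts could be lost when a single array was left out, though the differences kept their direction. Leaving out each of the 12 arrays in turn gave Myh7 differences from 2.73 to 3.01 and Mybpc2 differences from 1.78 to 2.21, and each passed in 7 of the 12 fits. Both missed without KO banded replicate 2, KO banded replicate 3 or any KO sham array, at limma adjusted p up to 0.108 for Myh7 and 0.103 for Mybpc2. Mylk4 ranged from −1.82 to −1.34 and passed in 11 of the 12 fits, missing without KO sham replicate 3 at an adjusted p of 0.0504.

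In the averaged comparison each of the 3 members passed in 3 of the 12 such fits, without WT banded replicate 3, WT sham replicate 1 or KO banded replicate 1. Their adjusted p in the other 9 fits reached 0.0886 for Myh7, 0.103 for Mybpc2 and 0.0735 for Mylk4 in limma. WT banded replicate 3 was the WT banded array with the lowest Myh7, and WT sham replicate 1 the WT sham array with the highest.

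**Figure D4:**
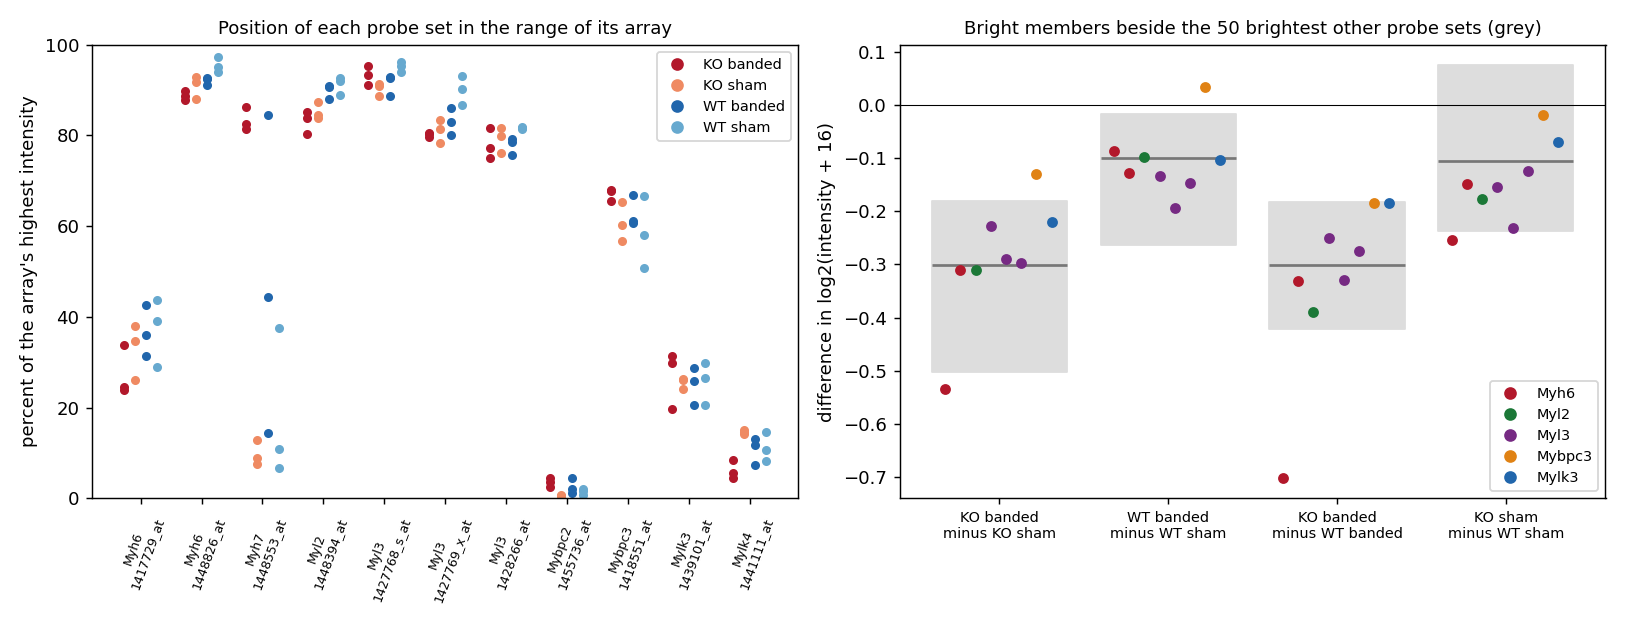
Left, each member probe set's intensity as a percentage of the brightest probe set of its array. Right, log2 differences of the members that did not pass (coloured points) beside the range (grey box) and median (line) of the 50 brightest other probe sets in the same comparison.

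Several members were near the top of the array's range, and the position of a probe set there is a matter of brightness, not a comparison of mRNA between genes. Myh6 on its brighter probe set stood at 87.9 to 97.2% of the array's highest intensity, Myl3 at 88.6 to 96.1% and Myl2 at 80.4 to 92.7%, while Mybpc3 stood at 50.8 to 67.9%. Myh7 moved within the range, at 81.5 to 86.2% in KO banded and 7.68 to 12.8% in KO sham arrays, and at 14.4 to 84.4% in WT banded and 6.79 to 37.7% in WT sham arrays. Mylk3 stood at 19.8 to 31.4%, Mylk4 at 4.405 to 15.1% and Mybpc2 at 0.453 to 4.47%.

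The highest intensity of an array was 10813 to 11291 in KO banded, 12544 to 14746 in KO sham, 11901 to 15130 in WT banded and 10231 to 20030 in WT sham arrays. The 50 brightest probe sets that are not members were lower on the same arrays, with a median log2 difference of −0.30 between KO banded and KO sham hearts (range −0.50 to −0.18, 50 of 50 below 0). Between WT banded and WT sham hearts their median was −0.10 (range −0.26 to −0.02, 50 of 50 below 0), and between KO banded and WT banded hearts −0.30 (range −0.42 to −0.18, 50 of 50 below 0). The values of Myh6 at −0.31, Myl2 at −0.31 and Myl3 at −0.23 between KO banded and KO sham hearts lay inside that range, and Mybpc3 at −0.13 lay just above it. The dimmer Myh6 probe set, at −0.53, lay just below it, and Mylk4, Mybpc2 and Myh7 lay far outside. Without KO banded replicate 1 the median of the 50 was −0.30 against KO sham (range −0.65 to −0.19) and −0.31 against WT banded arrays (range −0.56 to −0.18), with 50 of 50 below 0 in both. The dimmer Myh6 probe set was then at −0.71 against KO sham and still lay below that range. Against WT banded arrays it was at −0.70 with all arrays and −0.88 without KO banded replicate 1, below the range both times. With all arrays that difference did not pass (limma adjusted p = 0.236 over all single-gene probe sets). The brighter Myh6 probe set, at −0.33 against WT banded with all arrays, lay inside the range. Whether intensities near the top follow RNA amount in proportion was not tested.

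Groups without overlap were counted for the same members, each on its brightest probe set. Between KO banded and KO sham hearts Myh7 and Mybpc2 were higher in every array, where 12.2% of all genes tested were, and Myh6, Myl2, Myl3 and Mylk4 were lower in every array, where 14.4% were. Between KO banded and WT banded hearts none of the 8 was higher in every array (10.2% of all genes), and Myh6, Myl2, Myl3, Mybpc3 and Mylk4, 5 of the 8, were lower in every array (8.94% of all genes). The dimmer Myh6 probe set overlapped there, with 3828 on KO banded replicate 1 and 3733 on WT banded replicate 1. Between KO sham and WT sham hearts Mylk4 was higher in every array (5.51% of all genes) and Mybpc2 lower in every array (5.34% of all genes). No member was separated between WT banded and WT sham hearts, where 3.78% of genes were higher and 6.15% lower in every array, nor between all banded and all sham hearts, where 0.568% were higher and 0.751% lower. Without KO banded replicate 1 the same members were separated between KO banded and KO sham hearts, where 22.4% of all genes were higher and 27% lower in every array, and the same 5 were lower in KO banded than in WT banded hearts, where 21% of all genes were higher and 21.3% lower.

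The median log2 difference of the 8 members was −0.22 between KO banded and KO sham hearts, against −0.02 over all genes tested, and −0.10 between WT banded and WT sham hearts, against −0.02. Between KO banded and WT banded hearts the median was −0.22, against 0.0030 over all genes. In these comparisons the 50 brightest probe sets that are not members had medians of −0.30, −0.10 and −0.30. A median below that of all genes was therefore not particular to the members.

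Atrial chains were set beside the ventricular ones, because Myl4 and Myl7 encode the atrial essential and regulatory light chains. Myl7 was at 3060, 896 and 1070 in KO banded hearts, against 3.44, 3549 and 6103 in KO sham hearts, and at 7621, 5699 and 19.6 in WT banded hearts, against 443, 689 and 5785 in WT sham hearts. Myl4 was high and low on the same arrays, from 79.9 to 8330 in all. In WT banded hearts the array with the least Myl7, replicate 3, also had the least Myh7, whereas KO sham replicates 1 and 3, at the bottom and top of Myl7 in their group, had Myh7 at 1132 and 1128. The banding differences in knockout hearts were 0.50 for Myl4 (SE 1.67, limma adjusted p = 0.899) and 0.95 for Myl7 (SE 2.18, adjusted p = 0.847), and the part of atrial tissue in the Myh7 values was not tested further.

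Other myosin genes were read from the same fit of KO banded against KO sham hearts. Of 14 other sarcomeric chains 13 were on the array and 5 were tested, and none passed, with a median of 0.14 and with Myh7b, a slow heavy chain, at −0.49 (limma adjusted p = 0.300). Of those tested, Myh14 is a nonmuscle heavy chain and no sarcomeric one. Without KO banded replicate 1 Myh7b passed as lower, at −0.86 against KO sham (limma adjusted p = 0.00969) and at −0.69 against WT banded hearts (adjusted p = 0.0443), in fits in which 13.1% and 6.17% of all genes passed. Of 7 cytoplasmic and smooth muscle chains, all tested, only Myh10, a nonmuscle heavy chain, passed as higher, at 0.68 (SE 0.17, adjusted p = 0.0452), with a list median of 0.34 and with Myh11, the smooth muscle heavy chain, at −0.06 (adjusted p = 0.898). Without that array 2 of the 7 passed as higher, Myh10 at 0.86 (adjusted p = 0.00317) and Myl12b, a nonmuscle regulatory light chain, at 0.50 (adjusted p = 0.0258). Of 12 other thick filament and M-band genes 8 were tested and none passed, with a median of −0.22 and with Ttn, titin, at −0.25 (adjusted p = 0.458).

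Of 21 light chain kinase and phosphatase genes 15 were tested and none passed between KO banded and KO sham hearts, with a median of 0.04. Mylk, the smooth muscle and nonmuscle kinase, was at 0.25 (SE 0.13, limma adjusted p = 0.288). Of Mylk, Mylk3 and Mylk4, only Mylk4 passed. Without KO banded replicate 1, 1 of the 15 passed as lower, in a fit in which 13.1% of all genes passed. It was Ppp1r14c, an inhibitor of protein phosphatase, at −0.66 (limma adjusted p = 0.0114). Against WT banded hearts its relative Ppp1r14b then passed as higher, at 0.49 (adjusted p = 0.0342), where 6.17% of all genes passed. Mylpf, the fast skeletal regulatory light chain, was at or under 43.1 on all arrays and was not tested.

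Among 30 tested regulators of myosin isoform choice 1 was higher and 3 were lower between KO banded and KO sham hearts. Vgll2, a partner of TEAD factors, was higher by 1.56 (SE 0.32, limma adjusted p = 0.0244). Thrb, the thyroid hormone receptor beta, was lower at −0.80 (SE 0.17, adjusted p = 0.0286), with 59.4, 48.6 and 44.6 in KO banded hearts, against 93.7, 117 and 90.1 in KO sham hearts. Rxrg, a retinoid receptor that pairs with thyroid hormone receptors, was at −0.49 (adjusted p = 0.0397) and Mef2a, a muscle transcription factor, at −0.47 (adjusted p = 0.0474).

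Thra, the main thyroid hormone receptor of heart muscle, was at 0.04 (limma adjusted p = 0.916), and Tead1, which binds the MCAT element, at 0.31 (adjusted p = 0.136). Rcan1, a target of calcineurin signalling, was at 1069, 3585 and 3365 in KO banded hearts, against 1022, 731 and 765 in KO sham hearts, a difference of 1.48 (SE 0.41, adjusted p = 0.0617). Its value on KO banded replicate 1 was close to the KO sham values, and without that array Rcan1 passed at 2.04 (adjusted p = 0.00102), as did Tead1 at 0.39 (adjusted p = 0.0407). Without it 5 of the 30 regulators were higher and 6 lower in limma, where 13.1% of all genes passed, against 3.77% with all arrays. Against WT banded hearts Vgll2, its relative Vgll3 and Rcan1 then passed as higher and Thrb as lower, where 6.17% of all genes passed. Vgll2, Vgll3 and Rcan1 also passed in the interaction (limma adjusted p 0.0338, 0.0390 and 0.0445), where 1.9% did. The list median was −0.0023 between KO banded and KO sham hearts with all arrays.

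Of 12 tested folding and turnover genes Hsp90aa1, a chaperone that myosin needs to fold, passed as higher at 0.96 (SE 0.18, limma adjusted p = 0.0209). Of all genes 3.77% passed between KO banded and KO sham hearts, and 13.1% without KO banded replicate 1. Without KO banded replicate 1 Hsp90aa1 was higher at 1.14 and Hspb8 at 0.63, and Unc45b, a myosin chaperone, was lower at −0.42 (limma adjusted p 0.00150, 0.0435 and 0.00954). Averaged over genotypes Hsp90aa1 was higher at 0.79 (adjusted p = 0.0223), Vgll2 higher at 0.999 (adjusted p = 0.0476) and Hdac9, a class IIa histone deacetylase, lower at −0.40 (adjusted p = 0.0476). In wild-type hearts none of these lists had a gene that passed for banding. The lists were drawn up with earlier results of these arrays known.

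The genes whose log2 values ran most like a member's over the 12 arrays differed between bright and variable members. For Myh7 the closest of the other genes tested were Ahnak2 (r = 0.95), Aqp8 (0.94), Sh3bgrl (0.91), Mr1 (0.91) and Myot (0.91). For Mybpc2 they were Gas2l1 (0.91), Pros1 (0.90), Trappc12 (0.90), Stx2 (0.89) and Myh7 itself (0.89). For Mylk4 they were Nt5dc2 (0.96), Ccdc141 (0.96), Fitm1 (0.95), Znhit1 (0.95) and 4932438A13Rik (0.95).

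Myh6 ran closest to Tnnt2, cardiac troponin T (r = 0.998 over the 12 arrays), and Myl2 also ran closest to Tnnt2 (0.99), with Myl3 next to Rps29 (0.99) and then Tnnt2 (0.99). Mybpc3 ran closest to Actn2 (0.94) and Mylk3 to Smap2 (0.91). Within groups, as deviations from the 4 group means, r was 0.87 for Myh7 with Ahnak2, 0.75 for Mybpc2 with Myh7, 0.84 for Mylk4 with Nt5dc2 and 0.998 for Myh6 with Tnnt2. These arrays share their groups and each array's brightness, so the coefficients are a description of the 12 arrays.

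The array-wide measures that moved with a group stand beside the members as follows. The log2 ratio of 3′ to 5′ signal of Actb, a measure of RNA quality, was −0.20 ± 0.023 in KO banded, 0.15 ± 0.156 in KO sham, 0.15 ± 0.109 in WT banded and 0.09 ± 0.158 in WT sham arrays (SD, n = 3 each). The same ratio of Gapdh was −0.33 ± 0.011 in KO banded, −0.36 ± 0.025 in KO sham, −0.37 ± 0.024 in WT banded and −0.37 ± 0.0096 in WT sham arrays (SD, n = 3 each).

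Fibroblast markers, a list of 8 genes, summed to 8571, 19899 and 17054 in KO banded arrays, against 7709, 9240 and 9329 in KO sham arrays. They summed to 12886 to 13775 in WT banded and 9319 to 11994 in WT sham arrays. The low KO banded sum was that of replicate 1, which lay among the KO sham arrays, and the other KO banded sums were above all 9 arrays of the other groups. With all arrays 3 of the 8 were higher in KO banded than in KO sham hearts, where 3.77% of all genes passed. They were Postn, a matrix protein of activated fibroblasts, at 2.63, Col3a1 at 1.47 and Col1a1 at 1.18 (limma adjusted p 0.0247, 0.0228 and 0.0295). The rest of the list did not pass: Col1a2 at 1.23, Pdgfra at 0.41, Lum at 0.18, Tcf21 at 0.02 and Dcn at −0.10 (limma adjusted p from 0.0562 to 0.965). Without replicate 1, 4 of the 8 were higher, where 13.1% of all genes passed: Postn at 3.54, Col3a1 at 1.90, Col1a2 at 1.73 and Col1a1 at 1.47 (limma adjusted p 6.64e-06, 9.10e-05, 0.000182 and 0.00128). Their part in the Myh7, Mybpc2 and Mylk4 values was not tested.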

How the data were processed

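Affymetrix arrays of 12 mouse hearts were analysed from the values table of the series. The authors deposited a linear intensity for each probe set and array; no source used here gives the software or scaling. Every array had a trimmed mean of 150, and no further scaling was applied. Of 45101 probe sets, 64 were controls and were left out, 34945 had a single gene in the platform annotation, 932 had several and 9160 had none listed. Arrays have no read depth, so their number limits the precision.

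Intensities were taken as log2(intensity + 16), with the brightest probe set by mean standing for each gene, and the upper 60% of 18193 genes by mean were tested (10916). limma 3.58.1 in R 4.3.3 (lmFit, eBayes with a variance trend) was fitted to 4 group means with 8 residual degrees of freedom and 7 contrasts. Two-sided p-values were adjusted by Benjamini-Hochberg over all genes tested in a contrast, with a threshold of 0.05. The Myh7 to Myh6 log ratio was tested by exact permutation of the arrays compared, not within genotype or surgery (SciPy 1.17.1). The fit was tested on simulated data. Named were all 8 members, list genes that passed (at most 4 a list and contrast), 11 list genes named whatever their result, and the 5 genes most like each member.

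The members, gene lists and tests were chosen with earlier results of these data known. Alternatives changed the filter, the pseudocount, the normalization, the variance model and the arrays used. Group overlap, the brightest probe sets and the gene lists without KO banded replicate 1 were added after seeing the data. Replicate numbers were not used to pair the arrays in the main fit. Arrays of the same number in different groups had correlations of deviations from −0.28 to 0.23, and 2 of 18 exceeded 0.1. For arrays of other numbers they ran from −0.22 to 0.28, and 10 of 36 exceeded 0.1. These values cannot show whether surgery or hybridisation was done in pairs.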

Additional observations from a re-analysis of the deposited data

How the results depend on the processing

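The alternatives other than leaving out single arrays left the number of members that passed within 1.5 times its reported value in 84 of 88 cases. Averaged over genotypes, 1 member passed with no filter on low values (Myh7 at 2.08, limma adjusted p = 0.0569, and Mybpc2 at 1.29, adjusted p = 0.0623, missed), and Mybpc2 missed without the variance trend (0.0536). Between KO banded and WT banded hearts 1 member, Mylk4, passed with array weights (−1.23, adjusted p = 0.0106) and without KO banded 1 and WT banded 3 (−1.18, adjusted p = 0.00362), and in the interaction 1 member, Mylk4, passed without those 2 arrays (−1.52, adjusted p = 0.00756). Over all genes the count averaged over genotypes was 78 with no filter, against 172, and the KO banded against WT banded count was 586 with array weights and 351 without the 2 arrays, against 0.

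Quantile normalization, which forces equal distributions, turned the sign of members that had not passed: Myl3 (0.041) and Mybpc3 (0.10) for banding in knockout, Myl2 (0.039) for banding in wild type, and Myl3 (0.041) and Mybpc3 (0.044) for KO banded against WT banded. Without KO banded 1 and WT banded 3, Mybpc2 for KO banded against WT banded was −0.17 and Myh7 for knockout against wild type averaged over surgery −0.23. The cause was not tested.

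Leaving out each array in turn gave 0 to 3 members that passed for banding in knockout and for the average, 0 to 1 for KO banded against WT banded and for the interaction, and 0 in the others. The averaged banding difference of the Myh7 to Myh6 ratio ran from 2.14 to 2.70 and passed in 2 of 12 cases. Values that changed sign ran, for banding in knockout, from −0.36 to 0.0027 for Mylk3. For banding in wild type they ran from −0.36 to 0.14 for Myh6, −0.35 to 0.16 for Myl2, −0.38 to 0.13 for Myl3, −0.20 to 0.19 for Mybpc3 and −0.29 to 0.030 for Mylk4. For KO banded against WT banded they ran from −0.11 to 0.76 for Mybpc2 and −0.32 to 0.038 for Mylk3, and for KO sham against WT sham from −0.38 to 0.12 for Myh6, −1.04 to 0.062 for Myh7 and −1.01 to 0.24 for the Myh7 to Myh6 ratio. Averaged over surgery, knockout against wild type ran from −0.23 to 0.46 for Myh7 and −0.0037 to 0.73 for the ratio, and the interaction of Myh6 from −0.45 to 0.054. Without WT sham replicate 1 the KO sham against WT sham values of Myh7 and of the ratio were the 0.062 and 0.24 given here.

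With the replicate number as a block the same 3 members passed for banding in knockout (limma adjusted p 0.0334 for Myh7, 0.0312 for Mybpc2, 0.0157 for Mylk4) and averaged over genotypes (0.0407 for each), and the block changed no other member's call. For the Myh7 to Myh6 ratio the averaged banding difference kept its size of 2.30 but no longer passed with the block (exact permutation p = 0.0312, the smallest that permuting within pairs allows, and 0.188 adjusted over the 6 comparisons). An alternative planned without WT sham 1 and WT banded 3 was not run, because it chose arrays by their Myh7 values. The alternative without KO banded 1 and WT banded 3 was run. It also left out the WT banded array with the lowest Myh7, so its calls carry the same limit. With 3 arrays a group, small changes of the bright members could not be told from the spread between arrays.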
